A study of Mus musculus with 6 samples.

Results

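The genes described are the heat shock and J-domain chaperone families of the mouse, measured by RNA-seq in whole lung. They were chosen by gene symbol alone: the HSP70 and HSP110 genes (Hspa and Hsph1), the HSP90 genes, the small heat shock protein genes (Hspb), the chaperonin pair Hspd1 and Hspe1, and the J-domain genes (Dnaja, Dnajb and Dnajc), with pseudogenes left out. The symbols matched 72 of the 41388 genes counted, made up of 28 Dnajc, 13 Dnajb, 11 HSP70, 8 small heat shock protein, 4 Dnaja, 3 HSP90, 3 HSP110 and 2 chaperonin genes. After a filter on low counts 69 were tested, and Dnajb8, Dnajc5g and Hspb9 were not. The comparison asks how lungs of mice that lack Zpbp2 differ from those of normal mice. The 3 KO libraries come from adult mice that carry a deletion of the 5′ part of Zpbp2, an allele of 129S7 origin kept in a C57BL/6J background, and the 3 WT libraries come from C57BL/6J mice of the same colony. All lungs were taken at Zeitgeber time 7 h (ZT7), in the light phase. The deletion is constitutive and not limited to a cell type, and the labels give no other treatment for either group.

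Chaperones bind proteins that are unfolded, newly made or damaged. HSP70 proteins do so in cycles of ATP binding and hydrolysis, J-domain proteins bring them clients and start the hydrolysis, and HSP110 proteins exchange the nucleotide. HSP90 proteins act later, on clients that are nearly folded, while small heat shock proteins hold unfolded proteins without using ATP. Heat and other proteotoxic stress activate the transcription factor HSF1, which induces a subset of these genes in the cytosol, and unfolded protein in the endoplasmic reticulum (ER) induces another subset there.

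Library totals were 59134950 to 71354388 counts. Zpbp2 was counted 20, 15 and 7 times in WT1 to WT3 and 1, 0 and 0 times in KO1 to KO3. The libraries did not stand equally apart. For genes with 2000 to 20000 counts, the difference between KO2 and KO3 was 1.93 times the variance that counting alone gives, against 9.33 between WT1 and WT2 and 21.7 between KO1 and KO2, so KO2 and KO3 were summed and counted as 1 sample. The methods of the study describe each library as coming from a mouse of its own, and the counts do not show whether KO2 and KO3 came from separate mice or from the same RNA sequenced again. Leaving out KO1, or KO2 and KO3 together, leaves 1 KO sample, which is then assumed to vary like the WT samples. The comparison is therefore of 3 WT with 2 KO samples, and values with all 6 libraries kept separate, the design of the study, are given beside it. All 8 lung markers, among them Sftpc and Scgb1a1, were above 1 CPM (the count of a gene scaled to a common library size with TMM factors) in every library and summed to 45148 to 49032 CPM in WT and 63845 to 73512 CPM in KO, with all 8 above 0 in log2 fold change (median 0.47) and 5 called higher. The 15 squamous epithelium markers summed to 4898 and 9350 CPM in WT3 and KO1 and to 31.0 to 41.2 CPM in the other 4 libraries, and the 8 skeletal muscle markers to 3085 and 4459 CPM against 57.2 to 120 CPM. The 10 cardiomyocyte markers ranged from 1404 CPM in KO2 to 7448 CPM in WT1. The 10 adipocyte markers separated the genotypes, at 823 to 1401 CPM in WT and 141 to 320 CPM in KO, with all 10 below 0 in log2 fold change and 3 called lower, and their part in the chaperone values was not tested. In such bulk samples, fewer cells of a type and less RNA per cell cannot be told apart.

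Of the 69 chaperone genes tested, Hspb1 was higher and Dnajc13 was lower in KO at an adjusted p of at most 0.05 (edgeR quasi-likelihood test, Benjamini-Hochberg over all 18660 genes tested). These 2 are 2.899% of the members, beside 2.28% of all genes tested, a share near the background. With the 6 libraries kept separate, 15 of 68 members passed (22.1%, beside 18.9% of all genes), 12 of them higher and 3 lower in KO, where 9.81% and 9.07% of all genes were called. The 12 were Hspa1a, Hspa1b, Hspa2, Hspa8, Hspa12b, Hspb1, Dnajb1, Dnajb6, Dnajb11, Dnajc8, Dnajc14 and Dnajc25, and the 3 were Hspa5, Dnajc13 and Dnajc28. In all 15 every KO library lay on the same side of every WT library. Such separation was common in these data. It was found for 22 members above (31.9%) and 9 below (13.0%), beside 20.0% and 20.8% of all genes (40.8% in either direction), and 38 members overlapped. Scaling by library size alone gave 20 members above and 19 below (29.0% and 27.5%), beside 15.4% and 25.5% of all genes. The median log2 fold change of the tested members was 0.06, with 39 above and 30 below 0, and that of all genes tested was 0.02. Changes were small for most members, since 40 of 69 lay within 0.2 of 0 on the log2 scale.

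**Figure D1:**
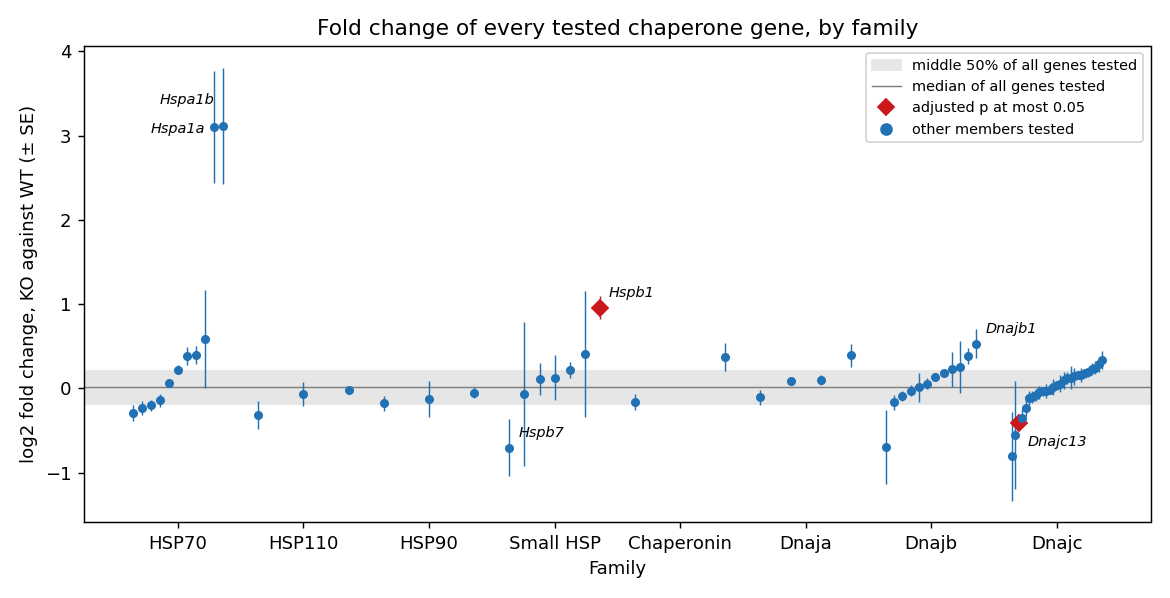
Log2 fold change (KO against WT, 3 WT and 2 KO samples) of each of the 69 chaperone genes tested, in order of size within each family. Bars are ± SE, red diamonds mark the 2 genes with an adjusted p of at most 0.05, and the grey band is the middle 50% of all genes tested. Hspa1a and Hspa1b stand above 3 with long bars, and most of the other genes lie close to 0.

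The member with the widest range is the stress-inducible HSP70, which the mouse encodes by a pair of intronless genes, Hspa1a (ENSMUSG00000091971, chr17:34969190-34972156, minus strand, GRCm38) and Hspa1b (ENSMUSG00000090877, chr17:34956436-34959238, minus strand). Their promoters are shown because the pair moved together and because they are almost the same sequence. The windows, from RefSeq (GRCm38.p6), run from 250 bases before the start site to 50 after it, cover chr17:34972107-34972406 and chr17:34959189-34959488, both minus strand, and are the same at 296 of 300 bases (98.7%). Capitals mark the 4 differing positions, at -207, -204, -2 and 26 from the start site.
Hspa1a: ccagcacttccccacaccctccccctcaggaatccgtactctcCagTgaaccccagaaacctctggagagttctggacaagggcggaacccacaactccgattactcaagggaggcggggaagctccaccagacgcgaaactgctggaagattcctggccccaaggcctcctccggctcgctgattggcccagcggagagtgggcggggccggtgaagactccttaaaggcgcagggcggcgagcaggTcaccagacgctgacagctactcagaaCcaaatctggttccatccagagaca
Hspa1b: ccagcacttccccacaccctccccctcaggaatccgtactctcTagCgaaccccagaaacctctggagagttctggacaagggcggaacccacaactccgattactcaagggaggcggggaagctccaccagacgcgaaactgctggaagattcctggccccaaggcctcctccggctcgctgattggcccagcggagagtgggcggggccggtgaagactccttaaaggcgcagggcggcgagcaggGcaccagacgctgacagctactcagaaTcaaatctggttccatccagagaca

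Hspa1a was measured at 6.21, 7.55 and 9.71 CPM in WT1 to WT3 and at 22.7, 109 and 112 CPM in KO1 to KO3. Hspa1b was measured at 7.28, 7.75 and 12.8 CPM in WT and at 27.1, 131 and 134 CPM in KO. For both genes the KO libraries all exceeded the WT libraries, but KO1 was far from KO2 and KO3. KO1 lay 2.898-fold above the WT mean for Hspa1a and 2.92-fold for Hspa1b, whereas the mean of KO2 and KO3 lay 14.1-fold and 14.3-fold above it. The log2 fold changes were 3.10 ± 0.66 (SE) and 3.12 ± 0.69, and neither passed the test (adjusted p = 0.0691 and 0.0716). Both passed with the 6 libraries kept separate (log2 fold change 3.37 and 3.39, adjusted p = 0.0171 and 0.0186). Without KO1, which leaves 1 KO sample, the log2 fold changes were 3.81 and 3.83 (adjusted p = 0.041 and 0.0767). Without KO2 and KO3, which leaves KO1 alone, they were 1.54 and 1.55 (adjusted p = 0.0866 and 0.0984). The count of Hspa1a over that of Hspa1b was 0.854, 0.974 and 0.758 in WT and 0.837, 0.828 and 0.837 in KO, so the pair kept near the same proportion at all levels. The 2 transcripts share 58.8% of the 50-base words of Hspa1a and 62.3% of those of Hspa1b, and how reads that fit both genes were counted is not given in the sources used here. The values of the single genes are therefore less certain than their sum, which was 13.5, 15.3 and 22.5 CPM in WT and 49.8, 240.1 and 245.3 CPM in KO.

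The 12 immediate early genes, which respond within minutes to handling of tissue as well as to other stimuli, were highest in sum in KO2 and KO3. Their summed level was 1492, 1087 and 1417 CPM in WT, 2068 CPM in KO1 and 3834 and 3845 CPM in KO2 and KO3. All 12 had a log2 fold change above 0, and 0 of 12 were called. Their order of libraries was not uniform, since KO1 was the lowest library for Atf3 (20.8 CPM) and the highest for Ier3 (170 CPM). Fos was highest among them in fold change (2.42, adjusted p = 0.0893), with 22.3 to 60.1 CPM in WT and 113, 349 and 355 CPM in KO. Erythroid markers, led by the globin genes, summed to 2403 to 5515 CPM in WT, 3962 CPM in KO1 and 19003 and 19740 CPM in KO2 and KO3. Hepatocyte markers summed to 2.93 to 3.96 CPM in WT, 6.42 CPM in KO1 and 44.4 and 44.3 CPM in KO2 and KO3. The part of any of these in the Hspa1a and Hspa1b values was not tested.

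**Figure D2:**
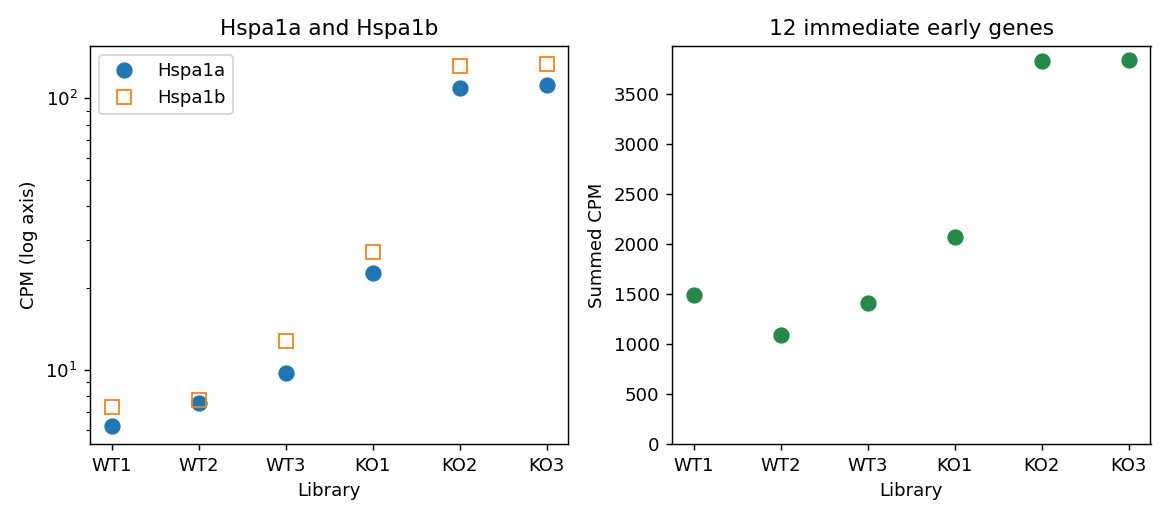
Left, level of Hspa1a and Hspa1b in each library (CPM, log axis). Right, summed level of the 12 immediate early genes in each library (CPM, linear axis from 0). The 2 KO libraries counted as 1 sample, KO2 and KO3, are highest in both panels, and KO1 lies between them and the WT libraries.

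The other 9 HSP70 genes moved by far less. Hspa8, the constitutive cytosolic HSP70 (Hsc70), was at 126, 143 and 150 CPM in WT and 168, 196 and 198 CPM in KO. The groups did not overlap, and the log2 fold change of 0.39 ± 0.11 passed with the 6 libraries separate (adjusted p = 0.0276) and not otherwise (adjusted p = 0.103). Hspa2, an HSP70 best known from the testis, was at 17.6 to 19.2 CPM in WT and 21.6 to 26.7 CPM in KO (log2 fold change 0.39, adjusted p = 0.0984, and 0.024 with 6 libraries). Hspa12b, a distant HSP70 of endothelial cells, was at 70.5 to 77.7 CPM in WT and 85.3 to 87.4 CPM in KO (log2 fold change 0.22, adjusted p = 0.0848, and 0.0303 with 6 libraries). Its relative Hspa12a had the lowest fold change of the family (-0.29, adjusted p = 0.144), with 32.2 to 38.5 CPM in WT and 26.8 to 30.5 CPM in KO. Hspa14, which acts at the ribosome, overlapped between the groups (39.4 to 41.1 and 40.7 to 43.1 CPM). Hspa1l, the neighbour of Hspa1a on the other strand, was highest in KO1 (4.61 CPM) and WT3 (3.20 CPM) and at 1.34 to 1.70 CPM in the other 4 libraries. These are the same 2 libraries that held the squamous and skeletal muscle markers, and 71.9% of the exon bases of Hspa1l are overlapped by the antisense gene Gm10501, whose reads can be told apart only if strand was used in counting. In all, 7 of 11 HSP70 genes had a log2 fold change above 0, with a median of 0.22, and 0 of 11 passed the test. With 6 libraries 5 were called higher and 1 lower, where 9.81% and 9.07% of all genes were. The median fell to 0.02 without KO1 and to 0.08 without WT3 and KO1, each of which leaves 1 KO sample. It was 0.14 with an offset for gene length and GC content, and 0.17 to 0.25 in the other alternatives.

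Heat-inducible genes were next examined as a list of 11 targets of HSF1 across families (Hspa1a, Hspa1b, Hspa8, Hsph1, Hsp90aa1, Hsp90ab1, Hspb1, Hspd1, Hspe1, Dnaja1 and Dnajb1). In 7 of the 11 every KO library was above every WT library, and in 0 of 11 below, beside 20.0% and 20.8% of all genes. The list was chosen with earlier results of these data known and does not hold every HSF1 target, so these shares depend on the genes listed. Bag3, for example, is outside the list, and its groups overlapped. The median log2 fold change was 0.39 (0.37 without Hspa1a and Hspa1b), against 0.02 for all genes. Only Hspb1 was called (1.38% of all genes were called higher), and 5 of 11 were called higher with 6 libraries (9.81% of all genes). Without KO2 and KO3 the median of the list was 0.26, and 0.13 without the Hspa1 pair. The list divided by member. Hspa1a, Hspa1b, Hspa8, Hspb1, Hspe1, Dnaja1 and Dnajb1 were higher in each KO library, whereas Hsph1, Hsp90aa1, Hsp90ab1 and Hspd1, which HSF1 also induces, overlapped between the groups and had log2 fold changes of -0.16 to -0.05.

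**Figure D3:**
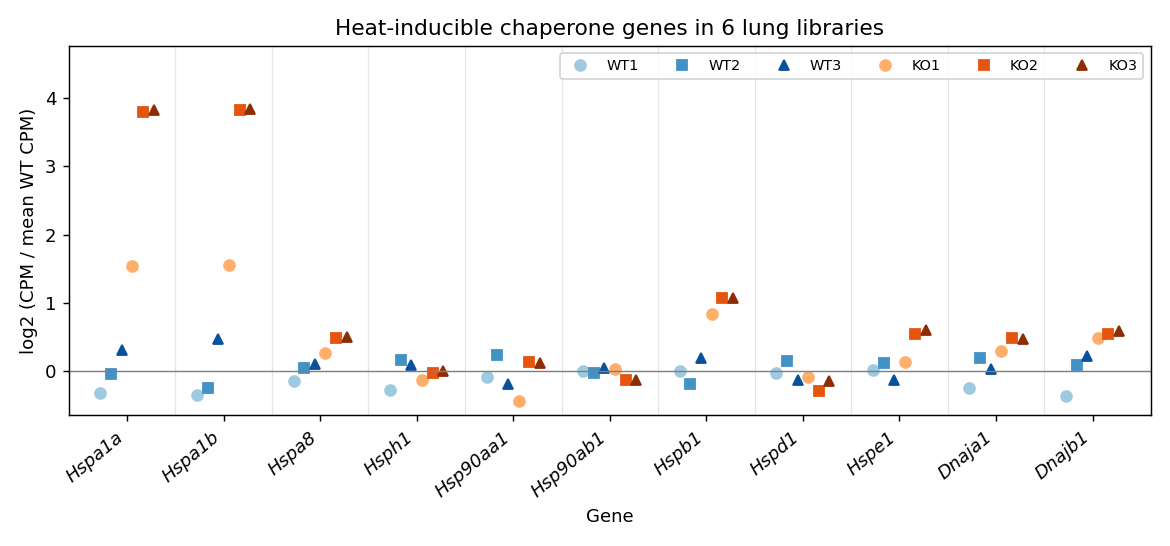
Level of the 11 heat-inducible genes in each of the 6 libraries, as log2 of the CPM over the mean of the 3 WT libraries. WT libraries are blue and KO libraries orange to brown. Hspa1a and Hspa1b in KO2 and KO3 stand near 3.8, Hspb1 near 1, and Hsph1, Hsp90aa1, Hsp90ab1 and Hspd1 show WT and KO points mixed around 0.

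A perfect heat shock element, searched as GAANNTTCNNGAA and as its other strand TTCNNGAANNTTC, was present in 0.603% of 32851 promoter windows. It was found in 4 of the 58 members that have a window (6.90%), namely Hspd1, Hspe1, Hsph1 and Dnajb6, beside 0.662% of all 27025 genes. The windows of Hspa1a, Hspa1b, Hspb1 and Dnajb1 hold no such exact match, which says only that these letters are not in these 300 bases. The Hspe1 window (chr1:55087898-55088197, plus strand) is shown because it lies in the shared promoter of a divergent pair with Hspd1. Capitals mark its 2 overlapping matches, 89 to 77 and 84 to 72 bases before the start site.
Hspe1: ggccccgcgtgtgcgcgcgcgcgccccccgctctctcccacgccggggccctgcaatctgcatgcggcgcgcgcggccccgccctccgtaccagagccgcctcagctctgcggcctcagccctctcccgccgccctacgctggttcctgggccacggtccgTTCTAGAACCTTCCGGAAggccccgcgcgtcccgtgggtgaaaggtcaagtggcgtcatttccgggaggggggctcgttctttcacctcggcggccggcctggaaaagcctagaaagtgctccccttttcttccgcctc
In Dnajb6 the match was GAATCTTCCGGAA, and in Hsph1 it was TTCTGGAAAGTTC, just after the start site.

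The chaperonin pair, which shares that promoter, had fold changes of opposite sign. Hspe1, the lid of the mitochondrial folding chamber, was at 10.9, 11.8 and 9.84 CPM in WT and at 11.9, 15.7 and 16.3 CPM in KO, so that KO1 lay barely above WT2. Its log2 fold change of 0.37 did not pass (adjusted p = 0.217). Hspd1, the chamber itself, was at 48.3, 54.7 and 44.97 CPM in WT and 46.1, 39.98 and 44.4 CPM in KO, with the groups overlapping (log2 fold change -0.16, adjusted p = 0.356). Whether the 2 fold changes differ was not tested. Hspd1 shares 44.8% of its 50-base words with other transcripts.

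None of the 3 HSP90 genes passed the test, and Hsp90ab1 and Hsp90b1 hold the highest levels of all members. Hsp90ab1, the constitutive cytosolic form, had a WT mean of 1263 ± 33.2 CPM (SD, n = 3) and a KO mean of 1217 ± 91.5 CPM (SD, n = 2) (log2 fold change -0.05, adjusted p = 0.702). Hsp90aa1, the inducible cytosolic form, was at 61.2, 76.5 and 57.0 CPM in WT and 47.8, 70.9 and 70.3 CPM in KO, with KO1 the lowest of the 6 libraries (log2 fold change -0.13, adjusted p = 0.748), and its sign turned in 3 alternatives. The 3 HSP110 genes overlapped between the groups as well. Hsph1, the heat-inducible member, was at 60.5, 82.6 and 78.4 CPM in WT and 67.4, 72.2 and 73.5 CPM in KO (log2 fold change -0.07, adjusted p = 0.797). Hspa4, its constitutive relative, was at 168 to 177 CPM in WT and 164 to 172 CPM in KO, and Hspa4l had the lowest fold change of the 3 (-0.32, adjusted p = 0.288) through KO1 at 60.0 CPM, where the other 5 libraries were at 81.0 to 99.5 CPM. All 6 genes of these families had log2 fold changes of -0.32 to -0.02, although the median of the HSP110 genes turned to 0.10 with the length and GC offset.

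Hspb1 (ENSMUSG00000004951, chr5:135887919-135889563, plus strand) encodes HSP25, a small heat shock protein of muscle, epithelium and other cells that binds unfolded proteins and actin. It was the one chaperone gene called higher in KO. It was at 33.2, 29.1 and 37.9 CPM in WT (33.4 ± 4.42, SD, n = 3) and at 59.6, 69.9 and 69.7 CPM in KO (64.7 ± 7.25, SD, n = 2). The lowest KO library was 1.78-fold above the WT mean, and the groups did not overlap. The log2 fold change was 0.96 ± 0.13 (adjusted p = 0.0474, and 0.00683 with 6 libraries). The call was lost when any WT library was left out, without KO1 (adjusted p = 0.085), without KO2 and KO3 (0.089) and with the gene length and GC offset (log2 fold change 0.72, adjusted p = 0.127), while the direction held in all 17 alternatives. Of its 50-base words, 51.7% also occur in the pseudogene Hsp25-ps1. Its promoter (chr5:135887669-135887968, plus strand) is shown for this called member and holds no exact match to either motif searched.
Hspb1: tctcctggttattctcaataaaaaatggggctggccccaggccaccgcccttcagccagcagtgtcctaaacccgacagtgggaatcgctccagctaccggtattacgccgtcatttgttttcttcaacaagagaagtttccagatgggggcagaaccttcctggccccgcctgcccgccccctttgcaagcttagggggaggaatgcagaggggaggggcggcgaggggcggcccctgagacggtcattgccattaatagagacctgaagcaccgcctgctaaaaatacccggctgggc

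None of the other small heat shock protein genes tested was called, and several varied widely between libraries of 1 genotype. Hspb7, a small heat shock protein of heart and other muscle, was at 141, 84.8 and 96.3 CPM in WT and 84.7, 47.5 and 45.7 CPM in KO. The groups did not overlap by a narrow margin (log2 fold change -0.70 ± 0.34, adjusted p = 0.253). Cardiomyocyte markers were in sum likewise highest in WT1 and lowest in KO2 and KO3. Singly, KO1 was the lowest library for Myl7, Ryr2, Tnnt2 and Tnni3, and KO2 or KO3 was lowest for the other markers. Hspb6 (HSP20), of muscle, was at 41.9, 31.3 and 85.8 CPM in WT and 117, 23.6 and 24.2 CPM in KO. Hspb3, of skeletal and heart muscle, was at 1.13, 0.484 and 1.43 CPM in WT and 1.70, 0.274 and 0.257 CPM in KO. Both were highest in KO1 and WT3, the libraries with skeletal muscle and squamous markers. The log2 fold change of Hspb6 was 0.41 (adjusted p = 0.769), and with a term for the squamous markers it was -0.28 (adjusted p = 0.458). It was -1.15 without KO1 (adjusted p = 0.346, 1 KO sample left) and -0.62 (adjusted p = 0.0409) without WT3 and KO1, an alternative chosen after seeing the data that removes the 2 libraries in which Hspb6 was highest and leaves 2 WT samples and 1 KO sample. Hspb8, which works with Bag3 in the removal of misfolded protein, was also highest in KO1 (137 CPM) and WT3 (115 CPM), with the other 4 libraries at 88.4 to 100.4 CPM (log2 fold change 0.12, adjusted p = 0.738). Hspb2 was highest in the same 2 libraries (19.2 and 16.5 CPM, and 11.1 to 14.9 CPM elsewhere), and 30.2% of its exon bases overlap those of Cryab on the other strand. Hspb11, a component of cilia rather than a stress protein, was at 7.49 to 8.11 CPM in WT and 8.75 to 9.78 CPM in KO (log2 fold change 0.22, adjusted p = 0.22). With the squamous term the log2 fold change of Hspb8 was -0.01, that of Hspb3 was -0.83 and that of Hspb7 was -0.82 (adjusted p = 0.975, 0.348 and 0.151), while Hspb1 kept 0.95 (adjusted p = 0.0262). The part of muscle in these values was not tested. The median of the 7 tested genes was 0.13 on the log2 scale, and it turned to -0.28 without KO1, to -0.16 without WT3 and KO1, to -0.03 with the squamous term and to -0.02 with the length and GC offset, among others.

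**Figure D4:**
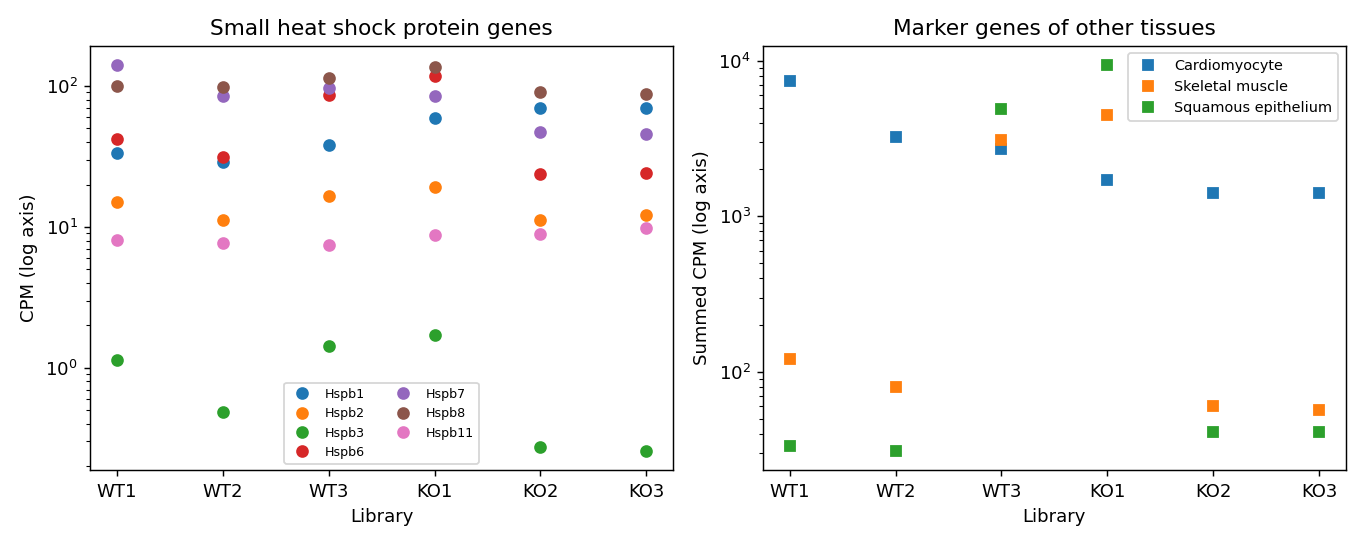
Left, level of the 7 tested small heat shock protein genes in each library (CPM, log axis). Right, summed level of the cardiomyocyte, skeletal muscle and squamous epithelium marker genes in the same libraries (CPM, log axis). Hspb1 separates WT from KO. Hspb7 and the cardiomyocyte sum are both highest in WT1 and lowest in KO2 and KO3, which does not hold for each cardiomyocyte marker. Hspb3 and Hspb6 peak in WT3 and KO1 with the other 2 marker sets.

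Among the J-domain genes, those of the A and B classes hold the general cochaperones of cytosolic HSP70. Dnajb1 (HSP40), the heat-inducible one, was at 47.7, 64.8 and 71.7 CPM in WT and 85.9, 89.7 and 92.0 CPM in KO. Each KO library exceeded every WT library, the WT libraries were the more spread, and the log2 fold change of 0.53 ± 0.17 did not pass (adjusted p = 0.136, and 0.0476 with 6 libraries). Dnaja1, its class A counterpart, was at 31.5, 42.7 and 38.3 CPM in WT and 45.9, 52.4 and 51.8 CPM in KO (log2 fold change 0.39, adjusted p = 0.157, and 0.054 with 6 libraries). Dnajb6, which keeps aggregation-prone proteins soluble, was at 9.08, 9.43 and 9.34 CPM in WT and 11.4, 12.8 and 12.7 CPM in KO. These WT libraries were nearly equal, and the log2 fold change of 0.39 ± 0.09 was near the threshold (adjusted p = 0.0817, and 0.0194 with 6 libraries). Of the sequence of Dnajb6, 35.8% of the 50-base words occur in other transcripts. Dnaja2, constitutive in the cytosol, was at 109 to 111 CPM in WT and 115 to 117 CPM in KO, a separation of the groups with a log2 fold change of 0.09 (adjusted p = 0.273). Dnajb2 was likewise higher in each KO library by 0.14 (adjusted p = 0.137). Dnajb4, Dnajb5, Dnajb12 and Dnajb14 overlapped between the groups. Dnajb13, a protein of the axoneme of cilia and sperm tails, was at 8.58 to 11.6 CPM in WT and 9.45 to 13.7 CPM in KO. Its 2 highest libraries, KO2 and KO3, were also highest for the sum of the ciliated cell markers (2906 and 2838 CPM, against 2047 to 2584 CPM elsewhere). That sum was led by Sec14l3 (1159 to 1746 CPM). The 10 markers tested split into 5 above and 5 below 0 in log2 fold change, and Dnah5 was highest in WT2 (114 CPM). Dnajb7, at 0.123 to 0.250 CPM in WT and 0.0951 to 0.120 CPM in KO, had the lowest fold change of class B (-0.70 ± 0.44, adjusted p = 0.375). Over both classes 16 genes were tested, 11 with a log2 fold change above 0 and 0 called.

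Dnajc13 (ENSMUSG00000032560, chr9:104151282-104262930, minus strand) encodes RME-8, a J-domain protein of endosomes that recruits Hsc70 in receptor sorting. It was the one member called lower in KO. It was at 82.1, 88.2 and 86.5 CPM in WT (85.6 ± 3.17, SD, n = 3) and 62.0, 64.9 and 68.0 CPM in KO (64.2 ± 3.15, SD, n = 2). The gap between the groups was wider than the range within either. The log2 fold change was -0.41 ± 0.06 (adjusted p = 0.0474, and 0.00833 with 6 libraries). Its direction held in all 17 alternatives, but offsetting gene length and GC content left it at -0.16 (adjusted p = 0.188), and the call was also lost when any WT library, KO1 (adjusted p = 0.0984), KO2 (0.052) or both KO2 and KO3 (0.084) were left out. With 11938 exon bases it is far longer than Hspb1 with 1031.

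The rest of the Dnajc class is a mixed set of proteins that share the J-domain and little else. Of the 27 tested, 15 had a log2 fold change above 0 and 12 below, the median was 0.04, and Dnajc13 alone was called. Those called higher with 6 libraries were the spliceosome-associated Dnajc8 (94.1 to 101 CPM in WT and 108 to 114 CPM in KO, log2 fold change 0.19), Dnajc14 of the ER membrane (108 to 113 and 121 to 125 CPM, 0.16) and Dnajc25 (13.2 to 13.9 and 15.8 to 16.1 CPM, 0.25), at adjusted p of 0.0405, 0.0467 and 0.0317. With KO2 and KO3 counted once their adjusted p were 0.0998, 0.107 and 0.11. Dnajc28 was lower, at 10.8 to 12.3 CPM in WT and 8.12 to 9.35 CPM in KO (log2 fold change -0.35, adjusted p = 0.12, and 0.0373 with 6 libraries). Each of these 4 had groups that did not overlap. In the whole class 3 of 27 were called higher and 2 lower with 6 libraries, beside 9.81% and 9.07% of all genes. Groups did not overlap for 8 members above and 3 below, beside 20.0% and 20.8% of all genes, so the class as a whole was near the background. The most abundant members of the class after Dnajc3 were Dnajc5, the cysteine string protein of secretory vesicles, at 167 to 176 CPM in WT and 154 to 170 CPM in KO, and Dnajc7, which carries clients between HSP70 and HSP90, at 147 to 164 and 167 to 179 CPM. Dnajc17 had the highest fold change of the class (0.34, adjusted p = 0.127), at 7.26 to 8.47 CPM in WT and 9.63 to 10.2 CPM in KO. Dnajc22 had the lowest (-0.80 ± 0.53, adjusted p = 0.39), on 18 to 45 counts in WT and 10 to 25 in KO.

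The ER chaperones were read from a list of 8 genes, which does not hold Dnajc14. Of the 8, 7 had a log2 fold change below 0 and Dnajb11 was above it, 1 lay above WT in every KO library, 3 below and 4 overlapped (beside 20.0% above and 20.8% below of all genes), the median was -0.10 (-0.16 to -0.04 over the alternatives), and 0 of 8 passed the test. Hspa5 (BiP, chr2:34771970-34777547), the ER HSP70 and the classical target of the unfolded protein response, was at 546, 553 and 505 CPM in WT and at 466, 464 and 461 CPM in KO. The groups were apart and the KO libraries nearly equal, and the log2 fold change was -0.20 ± 0.06 (adjusted p = 0.134, and 0.0358 with 6 libraries). Hspa13, another HSP70 of the ER, was at 29.9 to 35.96 CPM in WT and 27.4 to 28.0 CPM in KO (log2 fold change -0.23, adjusted p = 0.174). Hsp90b1 (GRP94), the ER form of HSP90, was at 785, 834 and 715 CPM in WT and 661, 710 and 716 CPM in KO. That is an overlap of KO3 with WT3, with a log2 fold change of -0.17 (adjusted p = 0.276). Dnajb9 (ERdj4) was at 27.2 to 29.1 CPM in WT and 25.8 to 26.7 CPM in KO (log2 fold change -0.09, adjusted p = 0.388), and Dnajc3 (p58IPK) was at 190 to 215 and 176 to 196 CPM (-0.11, adjusted p = 0.435). Dnajc1 and Dnajc10 overlapped between the groups at log2 fold changes of -0.05 and -0.01. Dnajb11 (ERdj3), a soluble partner of BiP, differed in direction, at 85.6, 86.8 and 84.4 CPM in WT and 97.3, 94.7 and 98.2 CPM in KO (log2 fold change 0.18 ± 0.04, adjusted p = 0.076, and 0.0265 with 6 libraries). The 6-library fit thus called 1 of 8 higher and 1 lower, where 9.81% and 9.07% of all genes were called.

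An ER stress response element, searched as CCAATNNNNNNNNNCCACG and as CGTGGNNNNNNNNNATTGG, was present in 0.119% of promoter windows and in 3 of 58 members (5.17%), Hspa5, Hsp90b1 and Dnajc3, beside 0.137% of all genes. All 3 had log2 fold changes below 0, as did 7 of the 8 ER genes listed, and none of the 3 was called. A link between the element and the fold changes was not tested. The Hspa5 window (chr2:34771840-34772139, plus strand) is shown for the most abundant ER HSP70, with its match, 65 to 47 bases before the start site, in capitals.
Hspa5: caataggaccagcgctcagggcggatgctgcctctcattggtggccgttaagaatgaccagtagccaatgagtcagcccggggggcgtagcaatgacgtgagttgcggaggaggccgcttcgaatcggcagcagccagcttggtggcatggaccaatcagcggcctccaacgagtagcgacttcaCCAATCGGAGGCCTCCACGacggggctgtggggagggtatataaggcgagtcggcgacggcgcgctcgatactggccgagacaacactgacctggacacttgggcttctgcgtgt
In Dnajc3 the match was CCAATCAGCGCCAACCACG, and in Hsp90b1 the matches were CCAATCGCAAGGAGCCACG and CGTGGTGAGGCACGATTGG.

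Of 10 mitochondrial chaperone genes listed, 9 were found by the symbol used. These 9 had a median log2 fold change of 0.02, with 5 above and 4 below 0 and 0 of 9 called in either fit. Hspa9 (mortalin), the HSP70 of the mitochondrial matrix, was at 209, 216 and 194 CPM in WT and 198, 178 and 175 CPM in KO, an overlap through KO1 (log2 fold change -0.14, adjusted p = 0.317). Dnaja3 (Tid1), its J-domain partner, was at 56.4 to 60.9 CPM in WT and at 58.7, 49.1 and 49.3 CPM in KO (-0.11, adjusted p = 0.479). Dnajc15 and Dnajc19 serve the protein import motor at the inner membrane. Dnajc15 was lower in each KO library, at 18.3 to 21.9 CPM in WT and 16.4 to 17.2 CPM in KO (-0.23, adjusted p = 0.225), and Dnajc19 overlapped (0.02). Dnajc30 was higher in each KO library, at 15.4 to 17.2 and 18.3 to 20.8 CPM (0.29, adjusted p = 0.129), and 26.3% of its exon bases are shared with Bud23 on the other strand.

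**Figure D5:**
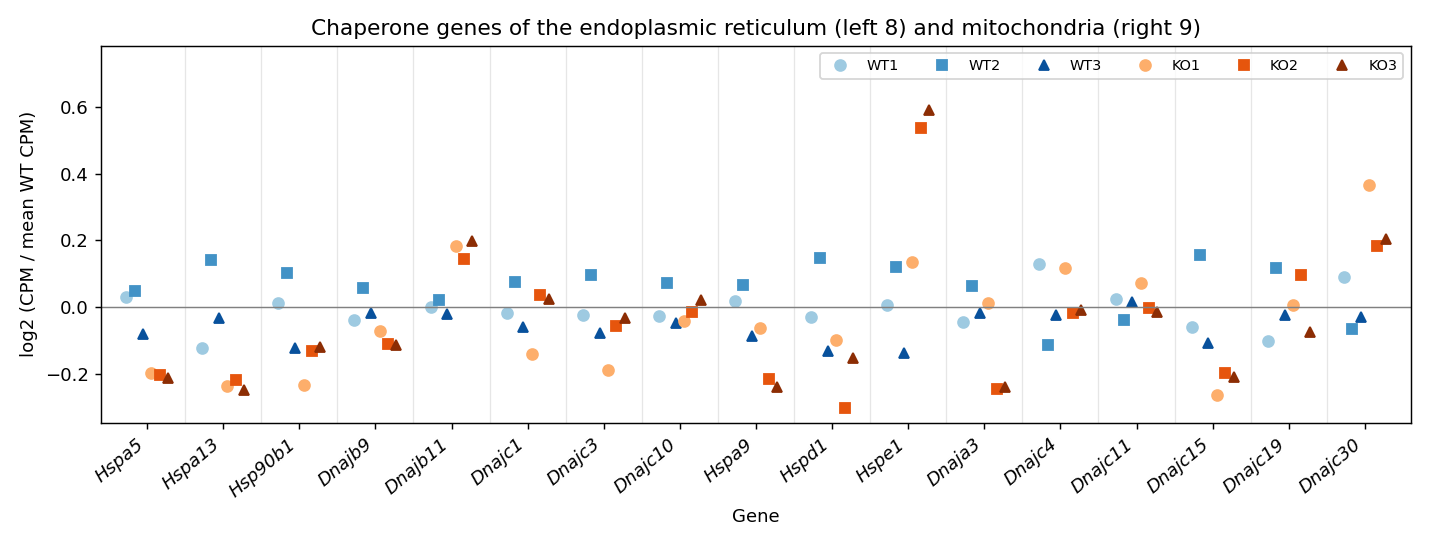
Level of the 8 ER genes (left) and 9 mitochondrial genes (right) in each library, as log2 of the CPM over the mean of the 3 WT libraries. WT libraries are blue and KO libraries orange to brown. The KO points of Hspa5 and Hspa13 lie below all WT points and those of Dnajb11 above them, and the KO points of Hspe1 are spread from 0.13 to 0.59.

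The genes that control or assist these chaperones were read from a separate list of 54. Of these 43 had a log2 fold change above 0 and 11 below, with a median of 0.12. Of all genes tested 52.2% were above 0, with a median of 0.02. The median of the list was 0.07 with library size alone, where that of all genes was -0.04. It was 0.04 without KO1 and 0.19 without KO2 and KO3, each of which leaves 1 KO sample. The prefoldin subunits Pfdn2 and Pfdn1, which deliver unfolded actin and tubulin to the cytosolic chaperonin, were called higher, and 0 were called lower, beside 1.38% and 0.906% of all genes. Pfdn2 was at 36.3, 35.3 and 38.5 CPM in WT and 52.4, 51.6 and 48.7 CPM in KO (log2 fold change 0.49, adjusted p = 0.0446). Pfdn1 was at 38.5, 39.7 and 40.2 CPM in WT and 52.2, 48.3 and 47.9 CPM in KO (0.35, adjusted p = 0.0496). Pfdn2 was called in 11 of 17 alternatives and Pfdn1 in 6, and neither was called when any WT library was left out. Just outside the threshold lay Hsbp1, a small protein that binds HSF1, at 105 to 106 CPM in WT and 123 to 131 CPM in KO (0.29, adjusted p = 0.0506). Pfdn5, another prefoldin subunit, had the same adjusted p (0.39, adjusted p = 0.0506). Next came the nucleotide exchange factors Bag1 and Hspbp1 (0.32 and 0.37, adjusted p = 0.0539 and 0.0559) and the ubiquitin ligase Stub1 (0.42, adjusted p = 0.0584). Hsbp1, Pfdn5, Bag1, Hspbp1 and Stub1 all passed with 6 libraries (adjusted p = 0.0119, 0.0087, 0.0125, 0.0145 and 0.0141). Hsf1 itself was at 54.6, 52.7 and 56.4 CPM in WT and 60.6, 59.2 and 58.9 CPM in KO (0.14, adjusted p = 0.166, and 0.0797 with 6 libraries). Bag3, which HSF1 also induces, was highest in KO1 and WT3 (133 and 115 CPM) and at 89.8 to 98.7 CPM elsewhere (0.20, adjusted p = 0.483). Hyou1, the HSP110 relative of the ER, was lower in each KO library (-0.14, adjusted p = 0.199). With 6 libraries 12 of 53 genes of the list were called higher.

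The summed level of all 72 members hardly differed, at 5984, 6159 and 5999 CPM in WT and 6046, 6050 and 6067 CPM in KO, which is 0.598 to 0.616% of a library. Within that sum the HSP70 genes made up 1073 to 1141 CPM in WT, 1092 CPM in KO1 and 1292 and 1289 CPM in KO2 and KO3. The HSP90 genes made up 2071 to 2145 CPM in WT and 1933 to 1990 CPM in KO. Per kilobase of exon, the order of levels in WT was Hsp90ab1 (421 CPM per kb), Hsp90b1 (193), Hspa5 (126), Hspb8 (53.6), Hspa9 (47.9), Dnajc3 (39.1), Hspb7 (38.7) and Dnajc8 (38.4). This is the order of the counts as deposited. Of the 50-base words of Hspa8 and Hsp90aa1, 51.4% and 58.5% also occur in other transcripts. How reads that fit several genes were counted is not given, so the place of these genes in the order is uncertain. On this scale Hspa1a and Hspa1b stood at 2.64 and 3.31 in WT. At the low end 7 members, Dnajb3, Dnajb7, Dnajb8, Dnajc5b, Dnajc5g, Dnajc22 and Hspb9, were under 1 CPM in every library.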

How the data were processed

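Lung RNA at ZT7 was sequenced in 3 WT and 3 Zpbp2 KO libraries, labelled as separate samples, and the authors deposited raw counts per gene. Per the labels, reads were trimmed with Trimmomatic 0.36, aligned to mm10 with STAR 2.5.3a, processed with Picard 2.9.0 and counted with HTSeq 0.6.0. The annotation release, the strand setting and the treatment of reads with several positions are not given in the sources used here. The table held 41388 genes with no unnamed rows.

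Counts were analysed with edgeR 4.0.16 (limma 3.58.1, R 4.3.3). Genes were kept by filterByExpr, scaled by TMM and tested with the two-sided quasi-likelihood test, with Benjamini-Hochberg adjustment over all genes tested. The threshold for a call was an adjusted p of 0.05. KO2 and KO3 were summed into 1 sample, so 3 WT and 2 KO samples were compared. The edgeR test was tested on simulated counts. CPM values use TMM factors over the 6 libraries, and KO means use the mean of KO2 and KO3 as 1 value. The members, lists and tests were chosen with earlier results of these data known. Full values are given for members called in either fit with groups that do not overlap, for 16 well known members, for the most abundant and the most changed members of each family, and for members whose highest library is over 2 times their lowest. Gene positions and exon lengths come from GENCODE M21 (GRCm38), and promoter windows from RefSeq. The p-values rest on 5 samples, and leaving out a WT library leaves 2 against 2. Alternatives were 6 separate libraries, a replicate block, DESeq2 1.42.0, RLE factors, library size alone, other filters, a squamous term, a length and GC offset, leaving out each library, and, added after seeing the data, leaving out WT3 and KO1.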

Additional observations from a re-analysis of the deposited data

How the results depend on the processing

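The main comparison called 426 genes and 2 of the members followed here. Other settings gave 3402 genes and 15 members with 6 libraries kept separate, 3875 and 18 with DESeq2, 2034 and 6 with a term for the squamous markers, and 2256 and 10 without WT3 and KO1 (chosen after seeing the data). A filter of at least 10 counts in every library called 937 genes and the same number of members. The offset for gene length and GC content called 0 genes and 0 members by edgeR, with 3517 genes and 18 members under an unadjusted p of 0.05. Leaving out 1 library called 0 to 418 genes and 0 to 2 members. The count was 0 without WT1, WT2 or WT3 (unadjusted, 3642, 3346 and 4193 genes, and 16, 13 and 14 members), 17 genes and 1 member without KO1, 355 and 1 without KO2 and 0 without KO2 and KO3 (5070 genes and 20 members unadjusted). The cause was not tested, and these settings also leave fewer samples, with 1 KO sample left without KO1, without KO2 and KO3, and without WT3 and KO1, which the fit assumes to vary like the WT samples. Library size alone called 306 genes, 38.2% of them higher in KO, against 60.3% of 426 with TMM, and RLE factors called 428. The 6 libraries with the replicate number as a block gave 1157 genes and 7 members, and a small heat shock protein median of -0.02 in log2 fold change. Same-numbered WT and KO libraries correlated at -0.48, 0.56 and -0.65 in their deviations from the group means, so the numbers were not taken as pairs, and not every library correlated best with its own number. For the 39 members with full values that were tested, 576 values under 17 alternatives kept their direction and side of the threshold, 44 newly passed, 13 no longer passed, 23 uncalled values changed sign, and Hspb6 turned to -0.62 without WT3 and KO1. Depths of 59.1 to 71.4 M counts leave little counting error for most members, but 2 KO samples limit the precision of every fold change.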

Other observations

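Dnajc7 and Hspb9 lie 2.02 and 2.16 Mb from Zpbp2 on chromosome 11, and Hspa4 lies 45.3 Mb from it. Dnajc7 was at 164, 164 and 147 CPM in WT and 167, 179 and 173 CPM in KO (log2 fold change 0.12, edgeR adjusted p = 0.331); its groups did not overlap. Hspb9, a gene known from the testis, was counted 3, 5 and 4 times in WT libraries and 6, 6 and 10 times in KO libraries and was not tested. Dnajb8, also known from the testis, had 0 counts in WT1, WT2, WT3 and KO1 and 3 and 6 counts in KO2 and KO3, and Dnajc5g had 1 count in KO3 and 0 in the other 5 libraries. The counts of Dnajb7 were 9, 11 and 15 against 6, 7 and 7 in WT and KO, and those of Dnajc5b were 12, 11 and 8 against 2, 11 and 8.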
